A study of Haliotis discus hannai with 24 samples.

Results

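The left eyestalk of the Pacific abalone Haliotis discus hannai was compared with the right eyestalk in 8 of the 24 sequenced libraries, 4 from each side. Libraries were taken by their tissue label, and gene expression was read as counts per gene. The animals are labelled as aquaculture stock, the treatment label of an eyestalk library names the excision of that eyestalk, and every library carries the same batch value. The other 16 libraries come from cephalic and epipodial tentacles. The labels give no age, sex or number of animals, and nothing in them says that the libraries of a side came from separate animals. P-values therefore measure the spread between these libraries, which may be technical.

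The eyestalk of a gastropod is a short stalk beside the head tentacle that carries the eye, with light-sensing and pigment cells, nerve, muscle and an epithelium. Gastropods are asymmetric animals: the shell coils and the organs of the mantle cavity are shifted, and in snails Nodal, a TGF-β family ligand, and its target Pitx act on one side of the early embryo. Whether paired sense organs of the adult head also differ by side is the question the study's design text puts, with cAMP-PKA-CBP and TGF-β signalling named as pathways of interest. The files pair no gene identifier with a name, so these pathways, and markers of eye, nerve or muscle cells, could not be looked up, and the labelled organ could not be checked against its markers. An eyestalk library mixes many cell types, and a lower level can stand for fewer cells of a type or for less RNA per cell, which cannot be told apart.

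The libraries of one side were unlike each other before any gene was compared. The number of genes with at least 1 count was 10631, 4073, 4360 and 10385 in left eyestalk replicates 1 to 4, against 3682, 8371, 8418 and 11090 in right eyestalk replicates 1 to 4. Fewer than 6000 genes were thus detected in left replicates 2 and 3 and in right replicate 1. Sequencing depth did not follow this: the total count was 1737333 to 2201621 in the left libraries and 1692939 to 4479096 in the right ones, and the highest total belonged to right replicate 2. In the 3 libraries of low detection 27.2% to 35.6% of the tested genes had no count, against 0.586% to 5.38% in the other 5. The 10 most abundant genes held 40.0% to 56.0% of the counts in the libraries of low detection. They held 80.7% in right replicate 2, and 19.0% to 26.9% in left replicates 1 and 4 and right replicates 3 and 4.

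One gene, HDSC05049CG00020, took a large part of some libraries on both sides. It held 1.08%, 9.38%, 6.92% and 0.109% of the counts in left replicates 1 to 4, against 24.1%, 70.8%, 0.0906% and 0.342% in right replicates 1 to 4. The ranges overlapped widely, and each side had libraries near 0.1% beside libraries at many times that share. It is the one gene over 20% of any eyestalk library. Its log2 fold change of left over right was -3.43, with a 95% interval of -8.49 to 1.64 (edgeR adjusted p = 0.9999). Without right replicate 2 this log2 fold change was -1.22, and without the libraries under 6000 genes it was -7.99. Without that library and those under 6000 genes it was 1.18, with the sign turned round.

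**Figure D1:**
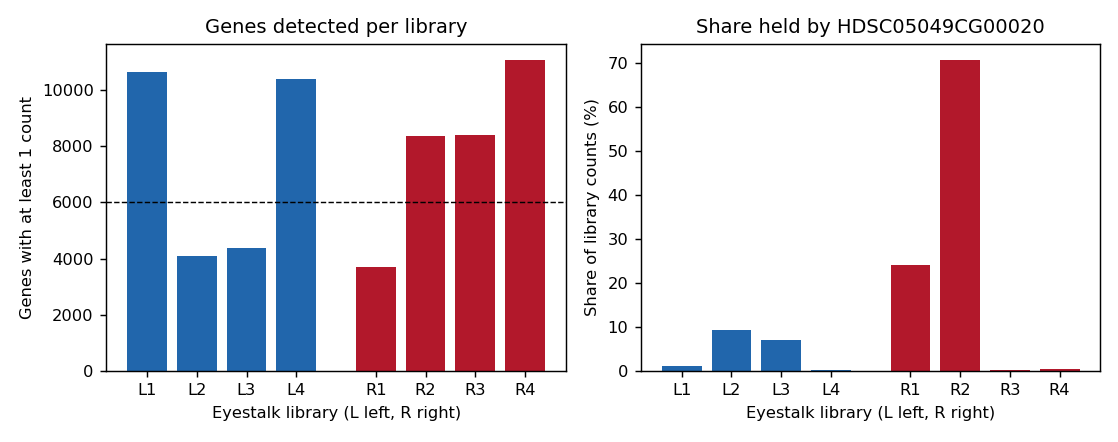
Genes with at least 1 count (left panel) and percent of the library's counts held by HDSC05049CG00020 (right panel) in the 4 left (L1 to L4) and 4 right (R1 to R4) eyestalk libraries, 1 bar per library; the dashed line marks 6000 genes. Both sides hold libraries below the line (L2, L3 and R1), and the gene's share is highest in R2, at 70.8%.

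None of these library measures separated the sides. The left libraries had 7362 ± 3636 genes detected and the right ones 7890 ± 3080 (SD, n = 4 each; exact two-sided permutation p = 0.857). The total count averaged 1947130 ± 192204 on the left and 2557430 ± 1292240 on the right (SD, n = 4 each; exact two-sided permutation p = 0.6). The most abundant gene of a library held 6.77% ± 3.30 on the left and 26.7% ± 30.6 on the right (SD, n = 4 each; exact two-sided permutation p = 0.286). Each of the 3 tests had an adjusted p of 0.857 (Benjamini-Hochberg over the exact permutation tests), and the smallest p that 4 libraries against 4 allow is 0.0286. Without right replicate 2 the difference in total count turned round, to 30259 counts more on the left.

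Whole profiles did not group by side either. Over the 4608 genes that passed the filter on low counts, 2 libraries of opposite sides lay 2.17 log2 CPM apart on average and 2 libraries of the same side 2.36 (root mean square over genes). CPM here are counts relative to the library's total after scaling by TMM, which corrects for the genes that dominate a library. The distance between sides minus that within sides was -0.20, so the sides were, on average, closer to each other than to themselves (exact two-sided permutation p = 0.114 over 35 distinct assignments, with n = 4 libraries each). For each of the 8 libraries the most correlated other library came from the other side. In left replicates 2, 3 and 4 and right replicates 2 and 4 it was the library of the same replicate number. The labels do not say whether libraries of a number share an animal, and the part of this in the distances was not tested. The best pair was left replicate 4 with right replicate 4, at a Pearson correlation of 0.93 across genes, and the weakest pair of all was at 0.51. Side accounted for 7.56% of the sum of squares of log2 CPM. The leading principal component accounted for 42.4%, and on it the 3 libraries under 6000 genes lay at -86.4 and -64.2 (left replicates 2 and 3) and -99.7 (right replicate 1). The libraries above that bound lay at 62.8 and 61.4 on the left and at 7.44, 37.9 and 80.7 on the right.

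The abundant genes were largely shared. Of the 100 genes with the highest counts in a library, 55 were in the top 100 of all 8 libraries. A pair of opposite sides shared a median of 77.5 of these 100 genes (69 to 90 in 16 pairs), and a pair of the same side a median of 73 (66 to 87 in 12 pairs).

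No gene was called between left and right eyestalks. edgeR's quasi-likelihood test, fitted on these 8 libraries alone, called 0 of 4608 genes (0%) at an adjusted p under 0.05, and the smallest adjusted p was 0.9999. At an unadjusted p under 0.05 it had 23 genes, 0.499% of those tested, a smaller share than the threshold itself; the cause of this low share was not tested. Of the 23 genes, 6 were at higher and 17 at lower values on the left. DESeq2, limma with voom weights and limma on log2(FPKM + 1) and log2(FPKM + 0.1) each called 0 genes, and had 41, 26, 7 and 5 genes below an unadjusted p of 0.05.

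The differences that were estimated were mostly small in size and large in error. The median absolute log2 fold change was 0.43, which is 1.35-fold, and the 90th percentile was 1.27. Left values were over 2-fold above the right for 277 genes (6.01%) and over 2-fold below for 502 genes (10.9%). Beyond 4-fold there were 35 genes above and 87 below, and the median signed log2 fold change of all tested genes was -0.10. These are estimates that include the noise between libraries, and none passed the test. The common biological coefficient of variation, the spread between libraries beyond counting noise, was 1.08.

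The width of the 95% intervals shows what that spread can exclude. The median interval reached 2.85 on the log2 scale, or 7.20-fold, to either side of its centre. It reached 1.52 at the 10th percentile and 3.89 at the 90th. A 1.5-fold or a 2-fold difference between sides could be excluded for 0 of the 4608 genes. A 4-fold difference was excluded for 720 genes (15.6%), an 8-fold difference for 1859 (40.3%) and a 16-fold difference for 3203 (69.5%). For the other 1405 genes (30.5%) even a 16-fold difference was within the interval. These intervals hold for 1 gene at a time and are not adjusted over genes.

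Abundant genes set the tighter limits. In the most abundant quartile of the genes, with a mean of 51.4 CPM or more, a 4-fold difference was excluded for 613 of 1152 genes (53.2%) and an 8-fold difference for 992 (86.1%), with a median reach of 3.02-fold. In the quartile below, from 18.2 to 51.3 CPM, the 4-fold bound was excluded for 107 genes (9.29%) and the 8-fold bound for 693 (60.2%). Between 8.89 and 18.2 CPM the 4-fold bound was excluded for 0 genes and the 8-fold bound for 165 (14.3%). In the least abundant quartile, from 2.18 to 8.88 CPM, the 8-fold bound was excluded for 9 genes (0.781%) and the 16-fold bound for 325 (28.2%), with a median reach of 12.4-fold.

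**Figure D2:**
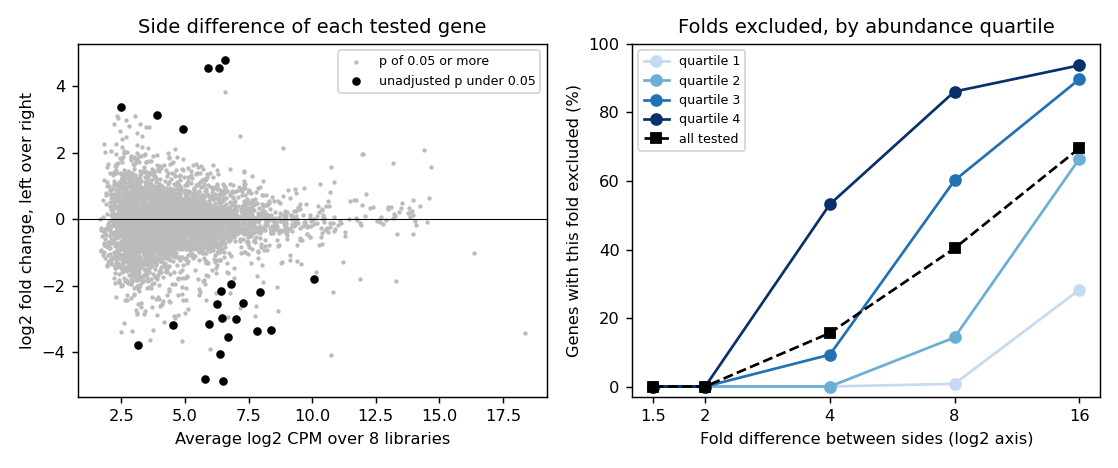
Left panel: log2 fold change of left over right eyestalk against average log2 CPM for the 4608 tested genes, with the 23 genes at an unadjusted p under 0.05 in black. Right panel: percent of genes for which a fold between sides was excluded at 95% per gene, against the fold on a log2 axis, by quartile of mean CPM (1 is the lowest) and over all tested genes; 0% of genes exclude 2-fold and 69.5% exclude 16-fold.

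The genes with the tightest limits show what agreement between the sides looks like. HDSC02518CG00010 was at 1723, 1305, 1882 and 1582 CPM in left replicates 1 to 4, against 1376, 2222, 1566 and 1808 CPM in right replicates 1 to 4. The left mean was 1623 ± 245 CPM and the right mean 1743 ± 365 CPM (SD, n = 4 each), and the ranges overlapped, with right replicate 2 above every left library and left replicate 2 below every right one. Its log2 fold change was -0.10, with an interval of -1.14 to 0.93 (edgeR adjusted p = 0.9999). HDSC01578CG00070 was at 368, 399, 443 and 504 CPM in the left replicates, against 440, 526, 478 and 329 CPM in the right ones. Its log2 fold change was -0.05, with an interval of -1.09 to 0.99 (edgeR adjusted p = 0.9999). In HDSC02518CG00010 the lowest libraries, left replicate 2 and right replicate 1, were both of low detection. Left replicate 3, also of low detection, was the highest left library of that gene at 1882 CPM. In HDSC01578CG00070 the libraries of low detection lay among the others. Even for these genes, picked as the narrowest, the interval reached about 2-fold to either side. The reach moved with the fit. Without the libraries under 6000 genes it was 1.49 and 1.54 on the log2 scale for HDSC02518CG00010 and HDSC01578CG00070. With a term for those libraries in the model it was 0.803 and 0.845.

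Consistency between the libraries of a side was rare. For 24 of the 4608 genes (0.521%) the left and the right libraries did not overlap in log2 CPM, 13 with every left library above every right one and 11 the other way. With sides assigned at random, 4 libraries without ties separate from 4 with a probability of 0.0286, which is above the share found. The 24 genes are thus not more than random sides would give. The gap between the sides was small: its median over the 24 genes was 0.19 on the log2 scale and its largest value 0.91. Their median level was 14.8 CPM, against 18.2 CPM over all tested genes.

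Among the 13 genes, the smallest p belonged to HDSC28301CG00010. It was at 7.62, 13.2, 11.1 and 3.27 CPM in left replicates 1 to 4, against 0, 0.659, 0.863 and 1.45 CPM in right replicates 1 to 4. These levels rest on 28, 21, 15 and 11 counts on the left and on 0, 1, 2 and 6 counts on the right. The log2 fold change was 3.36, with an interval of 0.39 to 6.50 (edgeR adjusted p = 0.9999). Of the 24 genes it is the one with an unadjusted p under 0.05.

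The other gene named in this direction, HDSC07391CG00010, was at 8.71, 11.4, 7.37 and 3.57 CPM in the left replicates, against 0, 0, 1.30 and 1.93 CPM in the right ones. Left over right came to a log2 fold change of 3.04, with an interval of -0.15 to 6.36 (edgeR adjusted p = 0.9999). Its right libraries without a count were replicates 1 and 2, the library of low detection and the dominated one.

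In the other direction HDSC00325CG00070 was at 2.45, 0, 0 and 1.49 CPM in left replicates 1 to 4, against 20.2, 7.25, 8.63 and 2.90 CPM in right replicates 1 to 4. The fitted log2 fold change was -3.12, with an interval of -6.55 to 0.18 (edgeR adjusted p = 0.9999). HDSC05550CG00030 was at 3.27, 0, 0 and 3.57 CPM on the left, against 11.1, 15.2, 6.47 and 6.52 CPM on the right. Here the log2 fold change was -2.41, with an interval of -5.78 to 0.89 (edgeR adjusted p = 0.9999). In both genes the left libraries without a count were replicates 2 and 3, the left libraries under 6000 genes; the part of low detection in these differences was not tested. With any 1 library left out, the log2 fold changes of these 4 genes ranged from 3.08 to 3.86 for HDSC28301CG00010, from 2.73 to 3.83 for HDSC07391CG00010, from -3.96 to -2.56 for HDSC00325CG00070 and from -2.99 to -2.06 for HDSC05550CG00030. None was called in any of these fits. The 4 genes were picked because their sides do not overlap, so leaving out 1 library could hardly turn their direction round. That their signs held is therefore no sign of stability. Without the 3 libraries under 6000 genes the 4 log2 fold changes were 2.33, 2.33, -1.71 and -1.46, in the same order and all nearer to 0 than with all 8 libraries.

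The genes with the most extreme folds rested on 1 library each. HDSC03303CG00040 was at 47.6, 36.6, 649 and 0 CPM in left replicates 1 to 4, against 14.1, 0, 12.9 and 0 CPM in right replicates 1 to 4. Left replicate 3 stood far above the rest, and the ranges overlapped. The log2 fold change was 4.78, with an interval of 0.35 to 9.25 (edgeR adjusted p = 0.9999), and 2.01 without left replicate 3.

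HDSC00433CG00040 was at 0.817, 18.3, 0 and 5.06 CPM in the left replicates, against 16.1, 677, 0 and 2.17 CPM in the right ones. Right replicate 2 stood apart, and the other right libraries lay within the left range. The log2 fold change was -4.85, with an interval of -9.51 to -0.22 (edgeR adjusted p = 0.9999), and 0.05 without right replicate 2.

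**Figure D3:**
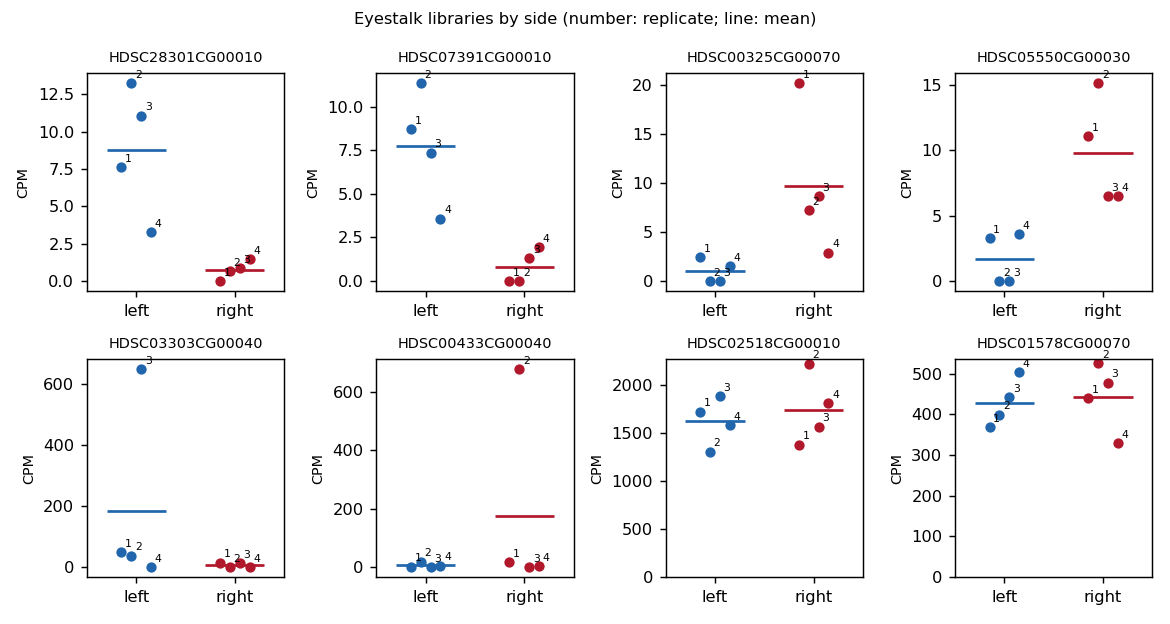
CPM of 8 genes in the left (blue) and right (red) eyestalk libraries; each point is a library with its replicate number and each line the mean of 4. The first 4 genes do not overlap between the sides, HDSC03303CG00040 and HDSC00433CG00040 have 1 library at 649 and 677 CPM, and the last 2 genes have the narrowest intervals.

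Right replicate 2 stood out among the genes with the smallest p and lower left values. It was the highest of the 8 libraries in 859 of the 4608 tested genes (18.6%). Among the 17 genes at an unadjusted p under 0.05 with lower left values, it was the highest in 17. It was likewise the highest in 62 of the 87 genes over 4-fold lower on the left. Genes picked for lower left values favour a right library as the highest, so these shares are not of like sets. Right replicates 1, 3 and 4 were the highest in 577, 529 and 772 tested genes, and each in 0 of the 17. The median level of the 17 genes was 22.6, 23.97, 21.4 and 15.2 CPM in left replicates 1 to 4, against 85.8, 569, 10.8 and 14 CPM in right replicates 1 to 4. Right replicates 3 and 4 were thus below each of the left medians. In these 17 genes right replicate 2 was a median of 6.46 times above the second-highest library. The median of this ratio over all tested genes, which were not picked for their p, was 1.29. The second-highest library was right replicate 1 in 9 of the 17 genes and right replicate 3 in 4. Genes picked for lower left values favour right libraries here too, and the second-highest library was not counted over all tested genes. Right replicates 2 and 1 have the highest shares of HDSC05049CG00020 (70.8% and 24.1%), and right replicate 3 has the lowest (0.0906%). The part of that gene's dominance in the other genes was not tested.

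Without right replicate 2, 8 of 5689 tested genes (0.141%) were below an unadjusted p of 0.05, 4 in each direction, and 0 calls. Of the 23 genes of the 8-library fit 23 were tested again and 0 were among these 8. With HDSC05049CG00020 taken out of the counts and all 8 libraries kept, 22 genes of 4867 were at an unadjusted p under 0.05, of which 19 were among the 23. Leaving out any 1 of the other 7 libraries also removed genes: 9 to 16 of the 23 remained below an unadjusted p of 0.05, the fewest without left replicate 3. HDSC28301CG00010 was not below it in any of the fits with 1 library left out.

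The 6 genes at an unadjusted p under 0.05 with higher left values had their highest library in left replicate 3 (4 genes) or left replicate 2 (2 genes), both under 6000 genes. Left replicates 3 and 2 were the highest in 13.0% and 11.3% of all tested genes. Genes picked for higher left values favour a left library, so these are not like sets. HDSC00161CG00020, HDSC01983CG00080 and HDSC03303CG00040 had a like profile, highest in left replicate 3 and absent from left replicate 4 and right replicates 2 and 4. The median level of the 6 genes was 24.8, 31.5, 252 and 1.64 CPM in left replicates 1 to 4, against 5.05, 0.330, 8.63 and 0.724 CPM in right replicates 1 to 4. Of the 122 genes over 4-fold apart in either direction, 117 (95.9%) had their highest value in right replicate 2 or in a library under 6000 genes. These 4 libraries held the highest value of 55.4% of all tested genes. The 122 genes were picked for large folds, so these shares are not of like sets.

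Leaving out the other libraries 1 at a time gave 21 to 57 genes at an unadjusted p under 0.05 and 0 calls. These were 0.374% to 1.19% of the genes tested, each a smaller share than the threshold itself. The count was 44 (0.776%) without right replicate 1, 47 (0.852%) without right replicate 3 and 57 (1.19%) without right replicate 4. Of these genes, 35, 39 and 44 were lower on the left. Each of these fits keeps right replicate 2 as 1 of 3 right libraries.

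**Figure D4:**
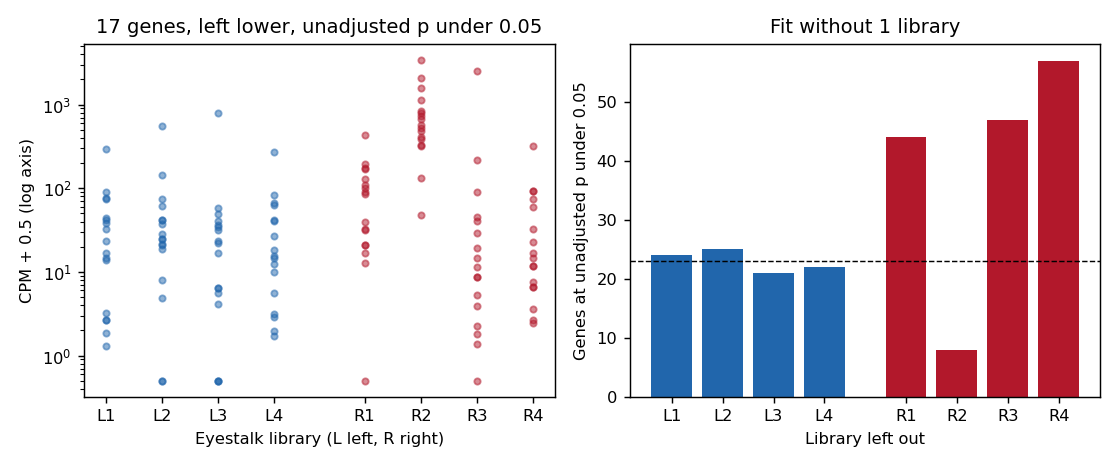
Left panel: CPM plus 0.5 (log axis) of the 17 genes with lower left values at an unadjusted p under 0.05, in each eyestalk library, 1 point per gene. Right panel: number of genes at an unadjusted p under 0.05 when the library on the axis is left out; the dashed line marks the 23 genes of the fit with all 8. R2 is the highest library for 17 genes, and the count falls to 8 without it.

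Leaving out the libraries under 6000 genes moved the intervals and the number of large folds in each direction, and not the calls. Over the 4512 genes tested in each fit, the median interval reached 4.21-fold without these 3 libraries and 6.97-fold with all 8. The 8-fold bound was excluded for 67.7% of these genes without them and for 41.2% with all 8. The 4-fold bound was excluded for 17.4% without them and for 15.96% with all 8. Without right replicate 2 alone the intervals were wider, with a median reach of 10.1-fold, and the 8-fold bound was excluded for 32.7%. Without right replicate 2 and the libraries under 6000 genes, 2 libraries remained on each side. The median reach was then 3.88-fold, the 4-fold bound was excluded for 27.4% and the 8-fold bound for 76.6%. The 2-fold bound was excluded for 0 of the 4512 genes in each of these fits. Of these genes, 33 were over 4-fold higher and 75 over 4-fold lower on the left with all 8 libraries. Without the libraries under 6000 genes these counts were 19 and 142. Without right replicate 2 they were 69 and 48, so the excess of lower genes turned round. Without right replicate 2 and the libraries under 6000 genes they were 18 and 62. The fit without the libraries under 6000 genes had 47 of 6557 genes at an unadjusted p under 0.05, 3 of them among the 23, and the fit that also left out right replicate 2 had 27 of 6419, 0 of them among the 23. Both called 0 genes.

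The side difference was then read within libraries of like detection. In the 5 libraries at or above 6000 genes, 2 left and 3 right, the median absolute difference of mean log2 CPM was 0.45. In the 3 libraries under 6000 genes, 2 left and 1 right, it was 1.52. These differences share no library. They had the same sign in 1972 of 4608 genes (42.8%) and the opposite sign in 2244 (48.7%), and for 392 genes the difference among the libraries under 6000 genes was 0. Their Pearson correlation across genes was -0.21 (Spearman -0.13). Without right replicate 2 the same sign held for 1836 genes (39.8%) and the opposite sign for 2380 (51.7%), and the Pearson correlation was -0.30. Genes of a library share its depth and scaling and are not independent, so these values describe the libraries and carry no test. The libraries under 6000 genes give this difference from a single right library.

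**Figure D5:**
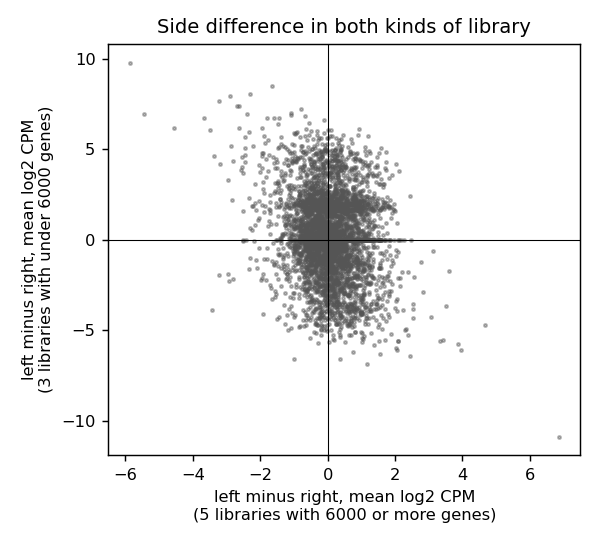
Difference of left minus right in mean log2 CPM for each of the 4608 tested genes, in the 5 eyestalk libraries with 6000 or more genes (horizontal axis) and in the 3 with fewer (vertical axis). The cloud does not follow a rising line: 42.8% of genes have the same sign on both axes and 48.7% the opposite sign.

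Genes seen on 1 side alone were mostly scarce. Of 14344 genes with a count in any eyestalk library, 11113 had counts on both sides, 1519 on the left alone and 1712 on the right alone. Most of the genes seen on 1 side were seen in 1 library, 1279 on the left and 1442 on the right, and their median was 2 counts on either side. A count in all 4 libraries of a side and in none of the other was found for 1 left and 3 right genes, which are named here after their values were seen and none of which passed the filter on low counts.

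HDSC00630CG00050 had 0 counts in each of the 4 left libraries, against 15, 14, 11 and 13 counts in right replicates 1 to 4. The right libraries were close in count, and spanned 3.17 to 14.2 in CPM. Against a floor of 3 counts over the 4 left libraries it was at least 19.7-fold lower on the left, or at least 16.04-fold without right replicate 1. In the edgeR fit with no filter its p was 0.00382 and its adjusted p 0.774 over 14344 genes. The tentacles, with 4 libraries per side, held 7 counts of it in left and 7 in right cephalic tentacles, and 3 in left and 7 in right epipodial tentacles. The side of the epipodial libraries is that of their tissue label, with which their titles are in conflict.

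HDSC01423CG00100 had 6, 49, 5 and 3 counts in left replicates 1 to 4, against 0 counts in each right library. It was at least 18.8-fold higher on the left against the same floor over the right libraries, and at least 5.00-fold without left replicate 2 (edgeR adjusted p = 0.774 with no filter). HDSC00899CG00090 and HDSC05743CG00010 had 0 counts on the left, against 12 and 9 counts over the 4 right libraries, too few to limit the fold closely. Floors cover counting error only.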

How the data were processed

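Polyadenylated RNA of left and right eyestalks was sequenced, with 4 libraries a side. Per the labels' protocols, TRIzol served for extraction and a VAHTS kit for the libraries. Per the submitters' processing notes, the tools were HISAT2, HTSeq and fastp; no versions are listed. Build, annotation and strandedness of counting were not given in the sources used here, so near-identical, overlapping and antisense genes are uncertain. The deposited read counts are raw whole numbers per gene. The FPKM values, as deposited, match the count divided by library total and a single length per gene, with a largest relative deviation of 1e-08. That length was derived from these counts and FPKM values, so the match shows only that it is the same in each library. The FPKM values were used in alternatives and as levels per length.

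Testing used the counts of the 8 libraries in edgeR 4.0.16 (R 4.3.3). filterByExpr over the sides left 4608 of 19700 genes, and TMM factors scaled the libraries. A robust quasi-likelihood model with 1 mean per side left 6 residual degrees of freedom. Benjamini-Hochberg adjusted p-values under 0.05 counted as calls. Fold changes are left over right. A gene's 95% interval holds the fold changes that the same F test did not reject, and it is not adjusted over genes. The scripts were tested on simulated data. Non-overlap was read from log2 CPM with a prior count of 2. Alternatives used DESeq2 1.42.0, limma 3.58.1, other scalings and filters, and fits without libraries.

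The comparison, lists and rules were chosen with earlier results of these data known. The rule for named genes took the smallest p among genes whose sides did not overlap, with 2 genes a direction. It also took genes over 20% of any library's counts, the 2 narrowest intervals and the most extreme fold in each direction. The files pair 0 identifiers with names. The 5 gene lists, 2 of them for TGF-β and for cAMP-PKA-CBP signalling, and the 9 marker lists were therefore not matched, and none was tested. Floors of 3 counts over a group and depth statements cover counting error only. No libraries were duplicates: the chi-square per gene was at least 35.6 within a side and at least 20.4 in all.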

Additional observations from a re-analysis of the deposited data

Results flagged for a closer look

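Of 24 sets of 4 libraries, for the named genes and the library measures of each side, 3 had 1 library far from the other 3, with a gap to the nearest library above Dixon's 95% critical value as a share of the range. Chance marks about 1 in 20 such sets where values are normally distributed, which was not tested for these sets. HDSC03303CG00040 in the left eyestalk reached 649 CPM in replicate 3, where the other left libraries held 0 to 47.6 CPM (share of the range 0.927). HDSC00433CG00040 in the right eyestalk reached 677 CPM in replicate 2, where the other right libraries held 0 to 16.1 CPM (share of the range 0.976). The total count of the right eyestalk was 4479096 in replicate 2 and 1692939 to 2102017 in the others (share of the range 0.853). Both of these genes were named for their extreme fold, which favours a library far from the others. The share of 1 in 20 is therefore no reference for them.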

How the results depend on the processing

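The call of 0 genes held under the alternatives run, except with no filter on low counts, which gave 1. The 23 of 4608 genes at an unadjusted p under 0.05 became 3 of 4608 with library totals alone. The count was 696 of 14344 with no filter and 10 of 3055 with at least 10 counts in at least 6 libraries. It was 8 of 5689 without right replicate 2 and 47 of 6557 without libraries under 6000 genes. It was 180 of 7341 when all 24 libraries were fitted. Of 4608 genes it was 41 with DESeq2 and 55 with voom and library quality weights (chosen after seeing the data). With limma on log2(FPKM + 1) and log2(FPKM + 0.1) it was 7 and 5 of 4608. These fits differ in the genes tested, so the counts are not of like sets. Leaving out 1 library gave 8 to 57, which is 0.141% to 1.19% of the genes tested. The 2-fold bound was excluded for 6 genes with RLE factors, 3 with no filter, 1 with the stricter filter, 28 with a term for libraries under 6000 genes and 1 when all 24 were fitted. The 4-fold bound was excluded for 183 genes with totals alone, 1236 without the dominated library and those under 6000 genes, and 360 to 552 with 1 library left out. The 8-fold bound was excluded for 1158 genes with totals alone, 3302 without libraries under 6000 genes, 3706 without the dominated library too and 2997 in the fit of all 24. The median absolute log2 fold change was 0.94 with no filter, 0.36 with the stricter filter, 0.57 with the detection term, 0.53 in the fit of all 24, 0.54 with voom and 0.46 to 0.62 with 1 library left out. The coefficient of variation was 1.31 with totals alone, 1.41 with no filter, 0.881 with the stricter filter, 1.20 without right replicate 2, 0.821 without libraries under 6000 genes, 0.724 without both, 0.942 with the detection term and 1.06 to 1.24 with 1 library left out. Non-overlapping genes with left higher were 26 of 4608 with totals alone, 6 of 3055 with the stricter filter and 26 of 5689 without right replicate 2. They were 364 of 6557 without libraries under 6000 genes, 601 of 6419 without both and 26 to 50 with 1 library left out. With left lower they were 0 with totals alone, 28 of 14344 with no filter and 28 of 5689 without right replicate 2. They were 211 of 6557 without libraries under 6000 genes and 491 of 6419 without both. The fit of all 24 gave 21 of 7341 with left lower, and leaving out 1 library gave 22 to 73. Fewer libraries overlap less by construction, so counts from fewer libraries cannot be set beside the count from all 8. Of the sign changes, the difference in total count was 30259 without right replicate 2 (range with 1 library left out -898460 to 30259), and that in genes detected was 164 at 10 counts and -1931 to 568 with 1 library left out. The log2 fold change of HDSC00433CG00040 turned to 0.046 without right replicate 2 (range with 1 library left out -6.38 to 0.046) and HDSC05049CG00020 to 1.18 without that library and those under 6000 genes. Elsewhere the cause of a change was not tested.

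Left and right libraries share replicate numbers. Their deviations from the side means correlated at -0.18, 0.30, 0.19 and 0.64 in numbers 1 to 4, so number 1 missed the bound of 0.1. The labels do not say whether libraries of a number share an animal, and the main fit has no block. The replicate block gave 0 calls, 12 genes below an unadjusted p of 0.05 and a median absolute log2 fold change of 0.61. By these deviations the left and right libraries of numbers 2, 3 and 4 were each other's best match across sides. Left replicate 1 correlated best with right replicate 4, and right replicate 1 with left replicate 2. Counts of 0 to 49 per library limit the scarce genes.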

Other observations

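Tested without a filter, 1 gene of 14344 was called by edgeR, HDSC05754CG00020, which was named after its value was seen. It had 1 count in left eyestalk replicate 4 and 0 in the other left libraries, against 509 counts in right eyestalk replicate 3 and 0 in the other right libraries. Its log2 fold change of left over right was -8.61 (edgeR adjusted p = 0.00771). The call thus rests on 1 library, and the gene did not pass the filter.

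When limma estimated a quality weight for each library, left replicates 1 to 4 had weights of 1.94, 0.309, 0.400 and 4.26, against 0.411, 1.10, 2.25 and 0.961 in right replicates 1 to 4. The 3 libraries under 6000 genes had the lowest weights. Right replicate 2, with 70.8% of its counts in HDSC05049CG00020, had a weight near those of other libraries.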
